A study of Mus musculus with 8 samples.

Results

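The 31 genes described here are the enzymes and transporters of glycolysis and a set of genes of the hypoxia response, followed in mouse CD8+ T cells that had been stimulated by 3 kinds of dendritic cell (DC). They were taken by gene symbol from a table of 43432 genes. The list holds 2 glucose transporters, 8 genes from hexokinase to aldolase, 7 from triose phosphate isomerase to lactate dehydrogenase, 2 monocarboxylate transporters, 2 enzymes that set fructose 2,6-bisphosphate and 10 genes of hypoxia sensing and response. All 31 were found, and all were among the 18971 genes abundant enough to be tested. OT-I cells, whose transgenic T cell receptor recognizes an ovalbumin peptide, came from the C57BL/6 strain. They were kept for 72 h with DC that bore antigen, and those that had divided were sorted for RNA sequencing. The RNA is therefore from sorted T cells, though markers of other cells were also found in it. The cultures are named by their partner. CD103+ cultures (3 libraries) held migratory CD103+ DC, CD8a+ cultures (3 libraries) held CD8a+ DC resident in lymph nodes, and CD11b+ cultures (2 libraries, numbered 2 and 3) held migratory CD11b+ DC. The plots name them CD103 DC, CD8a DC and CD11b DC. T cells without a DC partner were not analysed here, so the values show how the partners differ and not what stimulation did. The labels do not say whether libraries of 1 kind stem from separate mice or wells, so a p-value here reflects only how far these samples scatter, and that scatter may be technical.

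Glycolysis splits glucose to pyruvate in the cytosol, and lactate dehydrogenase turns pyruvate to lactate, which leaves the cell through monocarboxylate transporters. Naive T cells rely mainly on mitochondrial respiration, and activated T cells raise glucose uptake and glycolysis even where oxygen is present. Hypoxia-inducible factor 1 (HIF-1) pairs the oxygen-labile subunit encoded by Hif1a with a constant partner encoded by Arnt. The complex binds the letters ACGTG within hypoxia response elements and raises transcription of most glycolytic enzymes, and in T cells its amount also rises after T cell receptor signals.

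Sequencing gave 16293041 to 21973391 reads assigned to genes per library, recovered from the deposited normalized counts, and the rarest member value rested on 8 reads. Replicate 2 of the CD8a+ cultures stood apart on the first principal component over all genes (25.2% of variance). Its score was 106.3, and those of the other 7 lay between -33.4 and 16.4. Transcripts encoded in mitochondria made up 6.69% to 7.72% of the total in CD103+, 9.12% to 11.8% in CD8a+ and 7.02% to 7.20% in CD11b+ cultures. Levels are given as CPM, the part of the library's summed normalized counts scaled to a common total. T cell identity genes summed to 9910 to 10072 CPM in CD103+, 8895 to 9811 CPM in CD8a+ and 9566 to 10717 CPM in CD11b+ cultures, so the labelled cell type was borne out by its markers. Of these 14 genes Cd2 was called, higher in CD103+ than in CD8a+ cultures. In CD8a+ over CD11b+ cultures 3 were lower and 1 higher at an unadjusted p under 0.05 (all genes 13.6%), and 0 were called. Of all genes tested, 1.44% were called in CD103+ over CD8a+, 0.332% in CD103+ over CD11b+ and 1.97% in CD8a+ over CD11b+ cultures. These shares also apply to the markers that follow. Markers of DC were also present. Their 18 genes summed to 620 to 698 CPM in CD103+, 328 to 619 CPM in CD8a+ and 657 to 797 CPM in CD11b+ cultures, led by Ccr7, which T cells express too, and Ccl22. Of those 18, Cd209a was at 0 in all 8 libraries and Itgax, a defining DC gene, at 0 in 6. Of the 17 tested, Ccl22, Cd74, Flt3 and H2-Aa were higher in CD103+ than in CD8a+ cultures. H2-Aa was higher and Sirpa lower in CD103+ than in CD11b+ cultures, and Ccl17, Ccl22 and Sirpa were lower in CD8a+ than in CD11b+ cultures. Over the 3 kinds of culture in the same order, macrophage and monocyte markers summed to 56.6 to 72.4, 36.8 to 75.6 and 88.5 to 120.3 CPM. B cell markers, mostly Ighm, summed to 1038 to 1156, 987 to 1288 and 1183 to 1227 CPM. Among them Cd22 and Ighd were called higher in CD103+ than in CD8a+ cultures and Ighd higher in CD103+ than in CD11b+ cultures. Red blood cell markers summed to 1.51 to 4.02, 1.72 to 2.32 and 3.44 to 3.52 CPM, and stromal and epithelial markers, mostly Pecam1, to 169 to 238, 153 to 228 and 167 to 233 CPM. The part of other cells in the results was not tested, and in bulk RNA fewer cells of a type and less RNA per cell cannot be told apart.

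Most of the list is known for its response to HIF-1, so the promoters of the members were read for its core letters. RefSeq windows on GRCm38.p6, from 250 bases before to 50 bases after a gene's start, matched 30 of the 31 genes, and the other, Slc2a3, is named only. The motif was ACGTG on either strand (read as CACGT on the other), and the E-box CACGTG, which contains it, was also counted apart. At least 1 window of 23 of the 30 matched genes (76.7%) held ACGTG. Among all 27025 genes with a window 5886 did (21.8%), and among 5300 genes with a mean of at least 20 CPM here 1632 did (30.8%). Counted by window, it was in 27 of 46 member windows (58.7%) and in 6447 of 32851 windows in all (19.6%). Outside the E-box it was held by 22 of the 30 genes (73.3%), against 15.3% of all genes and 21.5% of those with at least 20 CPM. The E-box itself was in windows of 6 of the 30, against 8.09% of all genes and 12.4% of those with at least 20 CPM. No window of Gpi1, Pfkl, Pfkp, Tpi1, Eno1, Pfkfb4 or Pdk1 held ACGTG, which says only that these letters are not in those stretches. The upstream cores nearest to a start began at position -6 in Ankrd37, -14 in Slc16a3, -16 in P4ha1 and -25 in Mxi1. The stretches below hold cores on either side of a start, those of Hk1 lying after it. The first is the 250 bases before the start of Hif1a itself, with an E-box and a separate core, and the others surround cores of 9 genes from glucose uptake to protein folding. Those of Hk1, Pgk1 and Slc16a3 hold a pair. Each comes from the gene's first listed window with a core outside the E-box. They lie at Hif1a (chr12:73907617-73907866, plus strand), Slc2a1 (chr4:119108694-119108728, plus strand), Hk1 (chr10:62340392-62340429, minus strand), Hk2 (chr6:82774487-82774521, minus strand), Pgk1 (chrX:106186935-106186988, plus strand), Pkm (chr9:59657137-59657171, plus strand), Slc16a3 (chr11:120949025-120949072, plus strand), P4ha1 (chr10:59323265-59323299, plus strand), Mxi1 (chr19:53329332-53329366, plus strand) and Ero1l (chr14:45318616-45318650, minus strand). Each is written 5′ to 3′ on the strand of the gene, with the core or E-box in capitals. A match is a description of the letters and not a bound site.
Hif1a: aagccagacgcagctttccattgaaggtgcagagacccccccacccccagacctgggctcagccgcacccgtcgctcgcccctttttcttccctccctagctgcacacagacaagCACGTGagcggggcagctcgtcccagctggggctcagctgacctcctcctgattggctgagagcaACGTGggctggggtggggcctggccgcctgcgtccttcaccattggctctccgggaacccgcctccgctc
Slc2a1: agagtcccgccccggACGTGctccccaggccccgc
Hk1: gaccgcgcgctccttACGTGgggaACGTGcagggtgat
Hk2: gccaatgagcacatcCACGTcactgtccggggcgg
Pgk1: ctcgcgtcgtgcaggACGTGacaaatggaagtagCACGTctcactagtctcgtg
Pkm: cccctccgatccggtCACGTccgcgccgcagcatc
Slc16a3: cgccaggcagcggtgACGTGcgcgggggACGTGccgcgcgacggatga
P4ha1: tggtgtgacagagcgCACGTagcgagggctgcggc
Mxi1: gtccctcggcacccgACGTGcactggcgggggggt
Ero1l: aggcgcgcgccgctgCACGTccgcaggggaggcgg

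A fold change is the difference of mean log2(normalized count + 1), with the culture named first on top. A gene was called, or passed, where its p from a limma-trend fit of the 8 libraries, adjusted by Benjamini-Hochberg across the 18971 genes, was under 0.05. In CD103+ against CD8a+ cultures 0 of the 31 members were called by limma-trend, where 1.44% of all genes were, and 7 had an unadjusted p under 0.05 (22.6%; all genes 13.2%). In CD103+ against CD11b+ cultures 0 were called by limma-trend, against 0.332% of all genes, and 5 had an unadjusted p under 0.05 (16.1%; all genes 9.32%). In CD8a+ against CD11b+ cultures 1 was called, against 1.97% of all genes in either direction and 0.901% lower, and 10 had an unadjusted p under 0.05 (32.3%; all genes 13.6%). That member was the glucose transporter Slc2a3, which was lower in CD8a+ cultures. The test of any difference among the 3 kinds of culture called 2 members, Slc2a3 and Hif1a (6.45%), against 2.54% of all genes. Libraries did not overlap between CD103+ and CD8a+ cultures for 8 members (25.8%; all genes 16.6%). They did not overlap between CD103+ and CD11b+ cultures for 13 (41.9%; all genes 28.2%), nor between CD8a+ and CD11b+ cultures for 13 (41.9%; all genes 28.1%).

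The list did not shift as a whole. The median log2 fold change of the 31 members was 0.00 for CD103+ over CD8a+ cultures (16 above 0, 15 below), -0.06 for CD103+ over CD11b+ (15 above, 16 below) and -0.08 for CD8a+ over CD11b+ (14 above, 17 below). The medians over all genes tested were 0.02, 0.00 and -0.04. Subsets had medians of opposite sign in CD8a+ over CD11b+ cultures, 0.52 for the 7 genes from triose phosphate to lactate and -0.49 for the 10 hypoxia genes. The first leaned on replicate 3 of CD8a+, the highest library for each of those 7 genes. Their values were 0.23 (Gapdh) to 0.65 (Tpi1) with it and -0.04 (Pgam1) to 0.47 (Eno1) without it. The plot of fold changes shows all members in the 3 pairs.

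**Figure D1:**
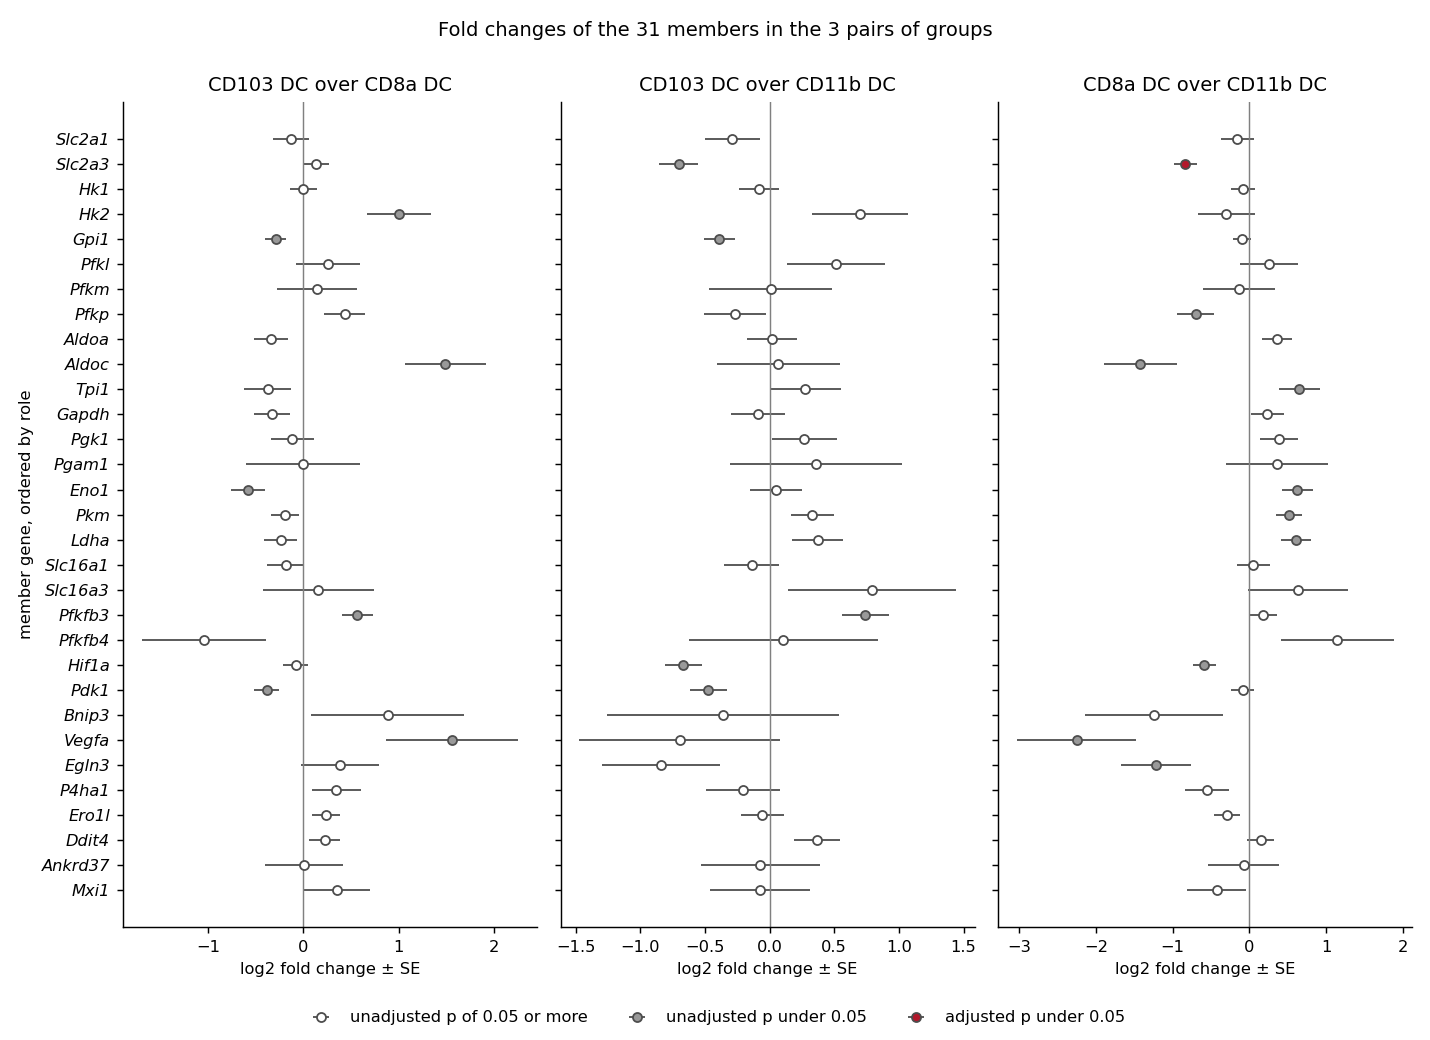
Log2 fold change (x axis, log2 scale, ± SE) of each of the 31 members (y axis, ordered by role) in the 3 pairs of cultures, with grey points for an unadjusted p under 0.05 and a red point for an adjusted p under 0.05. Slc2a3, at -0.84 in the panel of CD8a+ over CD11b+ cultures, is the only member called in a pair by limma-trend.

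Glucose enters T cells through facilitated transporters, of which Slc2a1 encodes GLUT1 and Slc2a3 encodes the high-affinity GLUT3. Slc2a3 (ENSMUSG00000003153; chromosome 6, 122727809 to 122801640, on GRCm38) had 133, 138 and 124 CPM in CD103+ cultures, 124, 125 and 99.2 CPM in CD8a+ cultures and 194 and 234 CPM in CD11b+ cultures. Both CD11b+ libraries lay above the other 6, and the CD103+ and CD8a+ libraries overlapped. The means were 132 ± 7.38 CPM in CD103+, 116 ± 14.4 CPM in CD8a+ and 214 ± 28.2 CPM in CD11b+ cultures (SD; n = 3, 3 and 2). The log2 fold change was -0.84 (SE 0.15, adjusted p = 0.0109) for CD8a+ over CD11b+ cultures, which passed. It was -0.70 (SE 0.15, adjusted p = 0.0768) for CD103+ over CD11b+ and 0.13 (SE 0.14, adjusted p = 0.738) for CD103+ over CD8a+ cultures, and the adjusted p for any difference was 0.0176. None of its transcript was shared with another annotated gene in windows of 50 bases. The call was kept whichever CD103+ or CD8a+ library was left out (adjusted p = 0.00712 to 0.0322) but rested on both CD11b+ libraries. The log2 fold change was -0.97 (adjusted p = 0.168, 0.0565 by edgeR) without replicate 2 of CD11b+ and -0.70 (adjusted p = 0.256, 0.201 by edgeR) without replicate 3. In those fits limma-trend called 0 genes of the whole table (1689 and 1810 genes at an unadjusted p under 0.05), and edgeR called 49 and 42. In CD103+ over CD11b+ cultures Slc2a3 passed once replicate 3 of CD8a+ was left out (-0.70, adjusted p = 0.0146) or replicate 2 (adjusted p = 0.0436).

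Slc2a1 had 45.7, 39.7 and 43.4 CPM in CD103+ cultures, 36.7, 42.4 and 59.1 CPM in CD8a+ cultures and 52.6 and 51.7 CPM in CD11b+ cultures. The highest value was that of replicate 3 of CD8a+, and those cultures overlapped with both others, while all CD103+ libraries were below both CD11b+ libraries. Its log2 fold change was -0.29 (SE 0.21, adjusted p = 0.762) for CD103+ over CD11b+, -0.16 (SE 0.21, adjusted p = 0.814) for CD8a+ over CD11b+ and -0.13 (SE 0.19, adjusted p = 0.829) for CD103+ over CD8a+ cultures. Slc2a1 passed in 0 of the 3 pairs.

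Hexokinases trap glucose in the cell as glucose 6-phosphate. Hk1, the broadly expressed form, had 81.3, 75.1 and 79.0 CPM in CD103+ cultures, 85.7, 71.1 and 70.2 CPM in CD8a+ cultures and 84.9 and 80.4 CPM in CD11b+ cultures, and its highest value was 1.22 times its lowest. Hk2, the inducible form, had 25.5, 41.5 and 33.8 CPM in CD103+ cultures, 17.2, 9.88 and 22.9 CPM in CD8a+ cultures and 13.9 and 29.1 CPM in CD11b+ cultures. All CD103+ libraries exceeded all CD8a+ libraries, while 1 CD11b+ library lay within the CD8a+ range and the other within the CD103+ range. In CD103+ over CD8a+ cultures the log2 fold change of Hk2 was 1.0037 (SE 0.33, adjusted p = 0.185) and did not pass. With 1 library left out at a time it was 0.69 (without replicate 2 of CD8a+) to 1.27 (without replicate 3), with adjusted p = 0.0735 to 0.441.

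Glucose 6-phosphate isomerase, encoded by Gpi1, makes fructose 6-phosphate, which phosphofructokinase commits to glycolysis. Gpi1 had 187, 198 and 202 CPM in CD103+ cultures, 234, 213 and 245 CPM in CD8a+ cultures and 239 and 272 CPM in CD11b+ cultures. The CD103+ libraries were the lowest 3 of the 8. Their log2 fold change was -0.29 (SE 0.11, adjusted p = 0.240) over CD8a+ and -0.39 (SE 0.12, adjusted p = 0.260) over CD11b+ cultures, and neither passed. Of the 3 phosphofructokinase genes, Pfkp, the platelet form, was the most abundant per length. Pfkp (ENSMUSG00000021196; chromosome 13, 6579768 to 6648777) had 190.5, 204 and 213 CPM in CD103+ cultures, 138, 95.1 and 227 CPM in CD8a+ cultures and 239.7 and 244 CPM in CD11b+ cultures. All CD8a+ values were below both CD11b+ values, and replicate 3 of CD8a+ stood above the CD103+ libraries. Its log2 fold change was -0.70 (SE 0.24, adjusted p = 0.190) in CD8a+ over CD11b+ and 0.43 (SE 0.21, adjusted p = 0.414) in CD103+ over CD8a+ cultures. Without replicate 3 of CD8a+ the values were -1.02 (adjusted p = 0.00402) and 0.75 (adjusted p = 0.0120), and both passed. Without replicate 2 of CD8a+ the first was -0.42 (adjusted p = 0.297), and it passed with no other library left out. The liver form Pfkl ranged over 13.0 to 41.2 CPM, lowest in replicate 2 of CD8a+, and the muscle form Pfkm over 4.07 to 13.1 CPM, lowest in replicate 1 of CD103+.

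Aldolase cleaves fructose 1,6-bisphosphate to 2 triose phosphates, and Aldoa is its main form outside liver and brain. Aldoa had 180.0, 219 and 219.8 CPM in CD103+ cultures, 231, 202 and 333 CPM in CD8a+ cultures and 168 and 242 CPM in CD11b+ cultures, with replicate 3 of CD8a+ the highest and overlap in all pairs. Aldoc, the form best known from brain, was scarce. Aldoc (ENSMUSG00000017390; chromosome 11, 78322968 to 78327781) had 8.72, 11.5 and 11.4 CPM in CD103+ cultures, 1.96, 5.92 and 3.82 CPM in CD8a+ cultures and 10.5 and 9.40 CPM in CD11b+ cultures. The 3 CD8a+ libraries were the lowest 3 of the 8, and the CD103+ and CD11b+ libraries overlapped. The log2 fold change was 1.49 (SE 0.43, adjusted p = 0.122) for CD103+ over CD8a+ and -1.42 (SE 0.48, adjusted p = 0.175) for CD8a+ over CD11b+ cultures. Neither passed with all libraries, and both did without replicate 2 of CD8a+ (1.87, adjusted p = 0.0358, and -1.81, adjusted p = 0.0455). Without replicate 1 of CD8a+ they were 1.06 (adjusted p = 0.260) and -0.99 (adjusted p = 0.299), and the highest adjusted p with any library left out was 0.338 and 0.607.

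**Figure D2:**
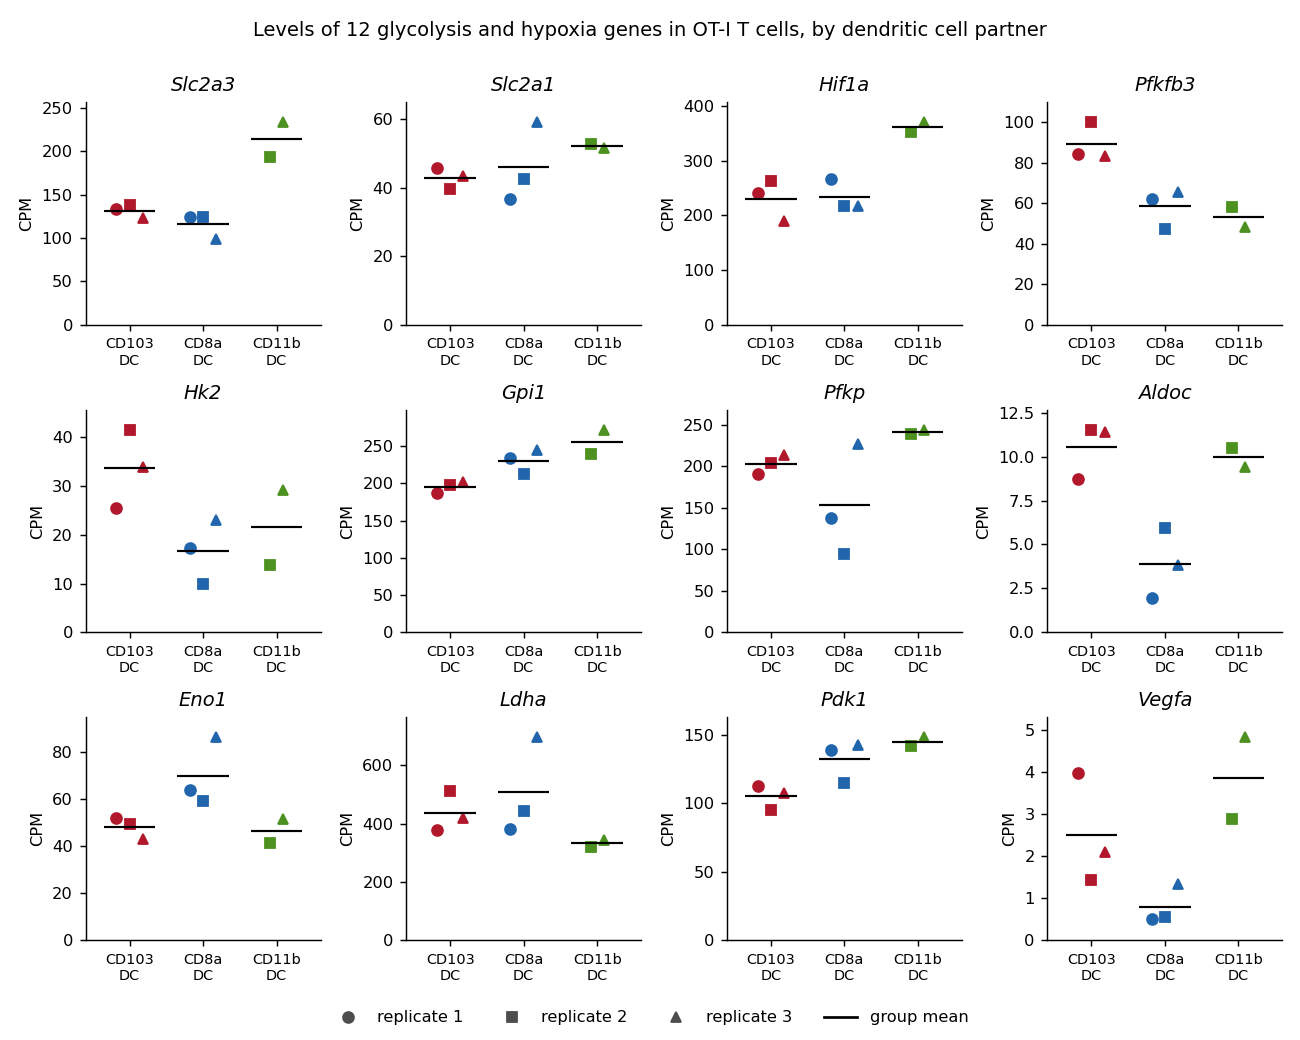
CPM (y axis, linear from 0) of 12 members in each of the 8 libraries by DC partner (x axis), with marker shape for the replicate number and a line for the mean. Slc2a3 and Hif1a are highest in both CD11b+ libraries, Pfkfb3 in the 3 CD103+ libraries, and Aldoc is lowest in the 3 CD8a+ libraries.

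The 7 genes from triose phosphate isomerase to lactate dehydrogenase stood highest in 1 library of the CD8a+ cultures. Summed, they reached 683, 873 and 746 CPM in CD103+, 749.8, 755 and 1211 CPM in CD8a+ and 594 and 635 CPM in CD11b+ cultures. Replicate 3 of CD8a+ was the highest of the 8 libraries for 7 of these 7 genes and for 12 of all 31 members, against 14.7% of all genes. Its values were 1.45 times (Gapdh) to 2.001 times (Tpi1) the median of the other 7 libraries, whereas the sums of replicates 1 and 2 lay within the CD103+ range. Replicate 2 of CD8a+, the library that stood apart on the first principal component, was the lowest for 10 of the 31 members, against 18.8% of all genes. The median log2 range among libraries of 1 kind was 0.33 for members in CD103+, 0.69 in CD8a+ and 0.26 in CD11b+ cultures (2 libraries). It was 0.70, 0.88 and 0.35 over all 18971 genes, and 0.29, 0.42 and 0.16 over the 6734 of them with a mean of at least 20 CPM, a level that not all members reach.

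Ldha (ENSMUSG00000063229; chromosome 7, 46841475 to 46855627), whose subunit favours lactate formation, had 377, 511 and 419.9 CPM in CD103+ cultures, 382, 443 and 696 CPM in CD8a+ cultures and 321 and 345 CPM in CD11b+ cultures. Both CD11b+ libraries were below the other 6. In CD8a+ over CD11b+ cultures its log2 fold change was 0.61 (SE 0.20, adjusted p = 0.153), and 0.37 (adjusted p = 0.219) without replicate 3 of CD8a+. Eno1, which encodes the alpha enolase that forms phosphoenolpyruvate, had 51.9, 49.3 and 43.2 CPM in CD103+ cultures, 63.9, 59.4 and 86.4 CPM in CD8a+ cultures and 41.5 and 51.4 CPM in CD11b+ cultures. Its CD8a+ libraries were the highest 3 of the 8, with log2 fold changes of -0.58 (SE 0.18, adjusted p = 0.151) in CD103+ over CD8a+ and 0.63 (SE 0.20, adjusted p = 0.147) in CD8a+ over CD11b+ cultures. Without replicate 3 of CD8a+ the value in the second pair was 0.47 (adjusted p = 0.283). Of the 50-base windows of the Eno1 transcript 72.2% are shared with other genes, so its counts are uncertain.

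Pkm, which encodes the pyruvate kinases M1 and M2, had 135, 164 and 162 CPM in CD103+ cultures, 156, 141 and 215 CPM in CD8a+ cultures and 123 and 120.1 CPM in CD11b+ cultures. The CD11b+ libraries were the lowest 2. The log2 fold change in CD8a+ over CD11b+ cultures was 0.52 (SE 0.17, adjusted p = 0.153), and 0.35 (adjusted p = 0.256) without replicate 3 of CD8a+. Tpi1, which interconverts the triose phosphates, had 49.9, 76.3 and 59.9 CPM in CD103+ cultures, 72.1, 52.8 and 116 CPM in CD8a+ cultures and 43.4 and 57.9 CPM in CD11b+ cultures. Here the libraries overlapped in all pairs, and the log2 fold change in CD8a+ over CD11b+ cultures was 0.65 (SE 0.27, adjusted p = 0.302), and 0.36 (adjusted p = 0.533) without replicate 3 of CD8a+. Gapdh (glyceraldehyde 3-phosphate dehydrogenase), Pgk1 (phosphoglycerate kinase) and Pgam1 (phosphoglycerate mutase) ranged over 31.2 to 49.8 CPM, 23.1 to 43.3 CPM and 1.27 to 4.57 CPM. Their log2 fold changes in CD8a+ over CD11b+ cultures were 0.23, 0.39 and 0.36, and without replicate 3 of CD8a+ 0.10, 0.18 and -0.04. Of the 7 genes, 4 had an unadjusted p under 0.05 in that pair, where 13.6% of all genes did. By limma-trend 0 were called in any pair, against 0.332% to 1.97% of all genes. All 7 were highest in replicate 3 of CD8a+, so the 4 are not separate observations. Without it the unadjusted limma-trend p was 0.138 for Tpi1, and 0.0159, 0.0268 and 0.0220 for Ldha, Eno1 and Pkm.

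**Figure D3:**
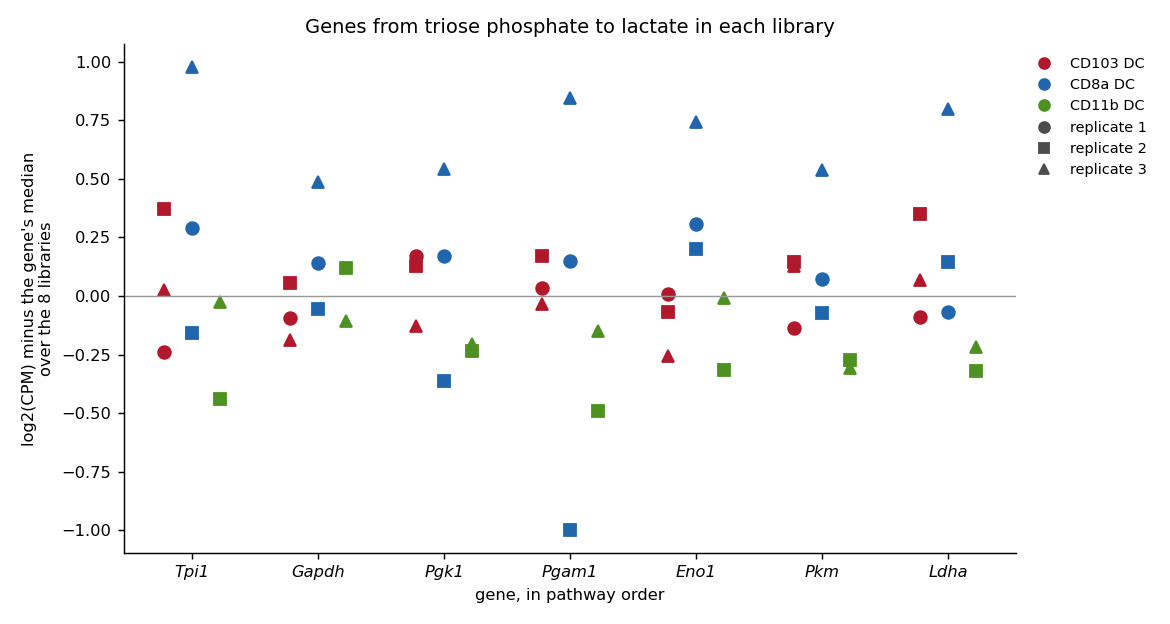
Log2(CPM) minus the gene's median over the 8 libraries (y axis, log2 scale) for the 7 genes from triose phosphate to lactate (x axis, in pathway order), coloured by DC partner and shaped by replicate number. Replicate 3 of CD8a+ is the top point for each of the 7 genes, from 1.45 times the median of the other libraries for Gapdh to 2.001 times for Tpi1.

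Lactate and pyruvate cross the membrane through Slc16a1 (MCT1) and through Slc16a3 (MCT4), the form adapted to lactate export. Slc16a1 ranged over 45.2 to 80.4 CPM with overlap in all pairs. Slc16a3 ranged over 2.44 to 16.6 CPM, and its highest value, again in replicate 3 of CD8a+, was 2.76 times the median of the other 7 libraries.

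Fructose 2,6-bisphosphate is a strong activator of phosphofructokinase, and Pfkfb3 encodes the enzyme with the greatest bias to its synthesis. Pfkfb3 (ENSMUSG00000026773; chromosome 2, 11471433 to 11554077) had 84.6, 100.1 and 83.5 CPM in CD103+ cultures, 62.4, 47.4 and 65.7 CPM in CD8a+ cultures and 58.2 and 48.4 CPM in CD11b+ cultures. The 3 CD103+ libraries were the highest 3 of the 8, and the CD8a+ and CD11b+ libraries overlapped. The means were 89.4 ± 9.31 CPM in CD103+, 58.5 ± 9.74 CPM in CD8a+ and 53.3 ± 6.95 CPM in CD11b+ cultures (SD; n = 3, 3 and 2). Its log2 fold change was 0.56 (SE 0.16, adjusted p = 0.123) for CD103+ over CD8a+ and 0.74 (SE 0.18, adjusted p = 0.124) for CD103+ over CD11b+ cultures, and the adjusted p for any difference was 0.0646. None of these passed by limma-trend, and both pairs passed with DESeq2 on the recovered reads (adjusted p = 0.0205 and 0.00570). Pfkfb4, the other form, ranged over 0.871 to 4.32 CPM. It was higher in each CD8a+ than in each CD11b+ library, at 1.15 (SE 0.73, adjusted p = 0.540) on the log2 scale.

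Hif1a (ENSMUSG00000021109; chromosome 12, 73901375 to 73947530), the oxygen-labile subunit, had 240.3, 263 and 189 CPM in CD103+ cultures, 267, 217 and 216 CPM in CD8a+ cultures and 352 and 371 CPM in CD11b+ cultures. Both CD11b+ libraries were above the other 6, and the CD103+ and CD8a+ libraries overlapped. The means were 231 ± 37.8 CPM in CD103+, 234 ± 29.3 CPM in CD8a+ and 361 ± 13.4 CPM in CD11b+ cultures (SD; n = 3, 3 and 2). By limma-trend with all libraries Hif1a was called in the test of any difference (adjusted p = 0.0443) and in 0 of the pairs. Its log2 fold change was -0.67 (SE 0.15, adjusted p = 0.0809) for CD103+ over CD11b+, -0.59 (SE 0.15, adjusted p = 0.0585) for CD8a+ over CD11b+ and -0.08 (SE 0.13, adjusted p = 0.851) for CD103+ over CD8a+ cultures. Leaving out any CD103+ or CD11b+ library ended the call of any difference, at adjusted p = 0.0715 to 0.116 without a CD103+ and 0.380 and 0.436 without a CD11b+ library. For Slc2a3 it also ended by limma-trend, at adjusted p = 0.0503 to 0.0609 without a CD103+ library (0.0405 to 0.0441 by edgeR) and 0.192 and 0.324 without a CD11b+ library (0.0504 and 0.240 by edgeR). With 1 CD11b+ library left, its spread is taken from the other cultures, and limma-trend then called 0 genes of the whole table for any difference (2058 and 2057 at an unadjusted p under 0.05; edgeR called 166 and 128), so those losses say nothing of either gene alone. The lower Hif1a level in CD103+ than in CD11b+ cultures passed without replicate 3 of CD8a+ (adjusted p = 0.0260), and that in CD8a+ than in CD11b+ cultures without replicate 3 of CD103+ (adjusted p = 0.0456). On the recovered reads of all libraries, both pairs passed with DESeq2 (adjusted p = 0.00423 for CD103+ and 0.00791 for CD8a+). They also passed with limma-voom (adjusted p = 0.0410 and 0.0302), and neither passed with edgeR. The mRNA level does not give the amount of HIF-1 protein, which oxygen sets after translation.

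Pdk1, a kinase that holds back the pyruvate dehydrogenase complex, had 112, 95.2 and 108 CPM in CD103+ cultures, 139, 115 and 143 CPM in CD8a+ cultures and 142 and 148 CPM in CD11b+ cultures. The CD103+ libraries were the lowest 3 of the 8. Their log2 fold change was -0.39 (SE 0.13, adjusted p = 0.199) over CD8a+ and -0.47 (SE 0.15, adjusted p = 0.263) over CD11b+ cultures, and neither passed. Vegfa (ENSMUSG00000023951; chromosome 17, 46016993 to 46032369), the gene of a vascular growth factor, was the scarcest member per length, with 3.97, 1.44 and 2.09 CPM in CD103+ cultures, 0.492, 0.547 and 1.33 CPM in CD8a+ cultures and 2.87 and 4.82 CPM in CD11b+ cultures. Every CD8a+ value was below every other value, at log2 fold changes of 1.56 (SE 0.69, adjusted p = 0.353) in CD103+ over CD8a+ and -2.25 (SE 0.78, adjusted p = 0.191) in CD8a+ over CD11b+ cultures. Egln3, which encodes the HIF prolyl hydroxylase PHD3, had 12.01, 4.97 and 6.01 CPM in CD103+ cultures, 4.60, 4.28 and 7.22 CPM in CD8a+ cultures and 13.6 and 11.9 CPM in CD11b+ cultures. The CD8a+ libraries were below the CD11b+ libraries, at -1.22 (SE 0.46, adjusted p = 0.237) on the log2 scale, and replicate 1 of CD103+ stood within the CD11b+ range.

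The other 6 hypoxia genes passed in 0 pairs. Ddit4, an inhibitor of mTORC1, ranged over 84.9 to 132 CPM and was higher in each CD103+ than in each CD11b+ library. Ero1l, an oxidase of the endoplasmic reticulum, ranged over 49.9 to 78.1 CPM, and its CD8a+ libraries were below all others. P4ha1, a collagen prolyl hydroxylase subunit, ranged over 19.9 to 46.9 CPM, and Mxi1, a MAX partner that opposes MYC, over 9.87 to 30.5 CPM. For both, each CD8a+ library was below each CD11b+ library. Ankrd37 and the mitophagy receptor Bnip3 ranged over 4.24 to 8.55 CPM and 0.457 to 7.11 CPM, with overlap in all pairs. The highest Bnip3 value was that of replicate 3 of CD8a+ and the lowest that of replicate 2.

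Shares within a family do not depend on how a library is scaled, so isoforms were also compared as shares of the family's CPM per exonic length. Slc2a3 made up 70.6, 74.1 and 70.1% in CD103+ cultures, 73.5, 70.8 and 58.0% in CD8a+ cultures and 75.2 and 78.8% in CD11b+ cultures of the 2 transporters together. Its mean share differed by -9.60 percentage points between CD8a+ and CD11b+ cultures and by -5.44 between CD103+ and CD11b+ cultures, without overlap (exact permutation p = 0.2 for each, two-sided). With 1 library left out at a time the first difference was -12.7 (without replicate 1 of CD8a+) to -4.90 (without replicate 3), and the second -7.25 (without replicate 2 of CD11b+) to -3.63 (without replicate 3). Pfkp made up 82.4, 79.9 and 77.5% in CD103+ cultures, 73.8, 79.7 and 79.3% in CD8a+ cultures and 87.3 and 85.1% in CD11b+ cultures of phosphofructokinase. Its mean share differed by -6.29 percentage points between CD103+ and CD11b+ cultures and by -8.66 between CD8a+ and CD11b+ cultures (exact permutation p = 0.1 for each). Pfkl took means of 14.8% in CD103+, 16.6% in CD8a+ and 9.46% in CD11b+ cultures, the reverse order of Pfkp.

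Aldoc was 2.88, 3.13 and 3.07% in CD103+ cultures, 0.518, 1.76 and 0.698% in CD8a+ cultures and 3.70 and 2.33% in CD11b+ cultures of aldolase. It was lower in each CD8a+ library than in any other (exact permutation p = 0.1 in both pairs). Hk2 was 21.3, 32.3 and 27.0% in CD103+ cultures, 14.8, 10.7 and 22.01% in CD8a+ cultures and 12.4 and 23.8% in CD11b+ cultures of the 2 hexokinases, with overlap in all pairs. Pfkfb4 was 5.10, 1.36 and 2.84% in CD103+ cultures, 5.73, 12.6 and 6.90% in CD8a+ cultures and 2.78 and 6.14% in CD11b+ cultures of the 2 Pfkfb forms, and lower in each CD103+ than in each CD8a+ library (exact permutation p = 0.1). Slc16a3 averaged 11.2% in CD103+, 9.86% in CD8a+ and 6.50% in CD11b+ cultures, and Pfkm 5.21%, 5.86% and 4.31%, with overlap in all pairs. Ldha was 98.1% to 99.4% of Ldha and Ldhb in the 8 libraries. With 3 libraries against 3 or against 2, these exact two-sided tests cannot go below p = 0.1, and the lowest Benjamini-Hochberg value over the 27 comparisons was 0.45.

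**Figure D4:**
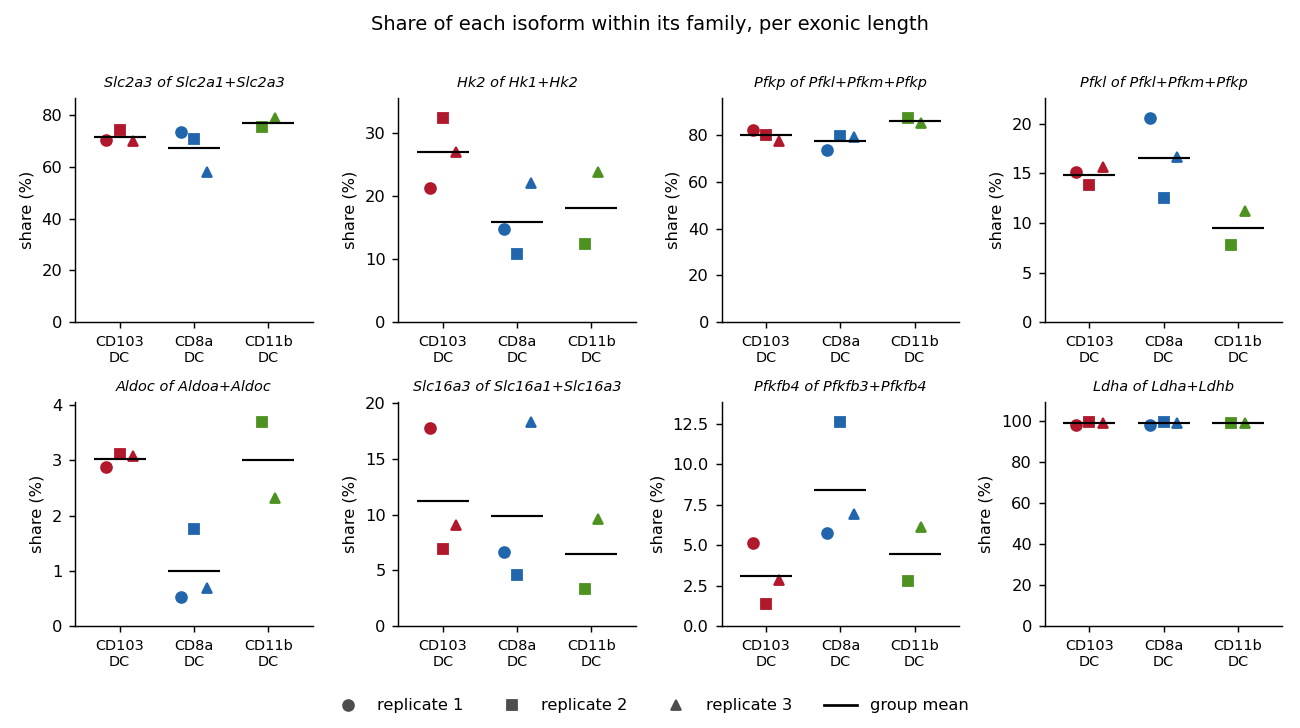
Share (%, y axis from 0) of each isoform in its family, per exonic length, in the 8 libraries by DC partner (x axis), with marker shape for the replicate number and a line for the mean. The CD11b+ libraries hold the highest Slc2a3 shares (75.2% and 78.8%) and Pfkp shares (87.3% and 85.1%), and the CD8a+ libraries the lowest Aldoc shares (0.518% to 1.76%).

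Per exonic length, Ldha was the most abundant member at a mean of 231 CPM per kb over the 8 libraries. Aldoa followed at 123, Gpi1 at 77.6, Ddit4 at 59.7, Pkm at 58.6, Hif1a at 48.5, Pfkp at 45.1, Tpi1 at 37.4 and Slc2a3 at 36.9 CPM per kb. The scarcest were Vegfa at 0.622, Pfkfb4 at 0.650, Pgam1 at 1.46 and Slc16a3 at 1.57 CPM per kb. Glycolytic genes have many processed pseudogenes, so shared sequence was counted. The 50-base windows of a gene's longest protein-coding transcript were matched on either strand to all other annotated genes. Of these windows 82.5% were shared for Gapdh, 72.2% for Eno1, 68.0% for Pgk1 and 62.4% for Bnip3. The shares were 41.5% for Pgam1, 34.4% for Pkm, 25.3% for Gpi1 and 17.1% for Pfkp. For Gapdh, 194 pseudogenes that share its windows were in the table and summed to a mean of 54.7 CPM, against 37.0 CPM for Gapdh itself. Those of Eno1, Pgk1, Bnip3, Pgam1, Pkm and Gpi1 summed to 0 to 0.428 CPM per gene. Of the 108 genes in the table that share windows with Gpi1, 2 were pseudogenes, and for Pfkp 0 were. Levels of the genes with shared windows are uncertain, since how shared reads were counted is not given in the sources used here. Shared windows were 16.6% for Ldha, 7.25% for Hif1a and 0 for Slc2a3, Hk2, Aldoc, Pdk1 and Egln3.

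Some members also overlap a gene on the opposite strand, and without a stated strand setting their reads cannot be told apart there. Pfkm, at a mean of 8.41 CPM, overlaps Senp1 at 196 CPM. Ankrd37, at 6.19 CPM, overlaps Ufsp2 at 35.9 CPM, and Gapdh overlaps Iffo1 at 18.5 CPM. Pfkp overlaps Pitrm1 at 71.2 CPM, and Hif1a its antisense gene Gm15283 at 7.65 CPM.

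**Figure D5:**
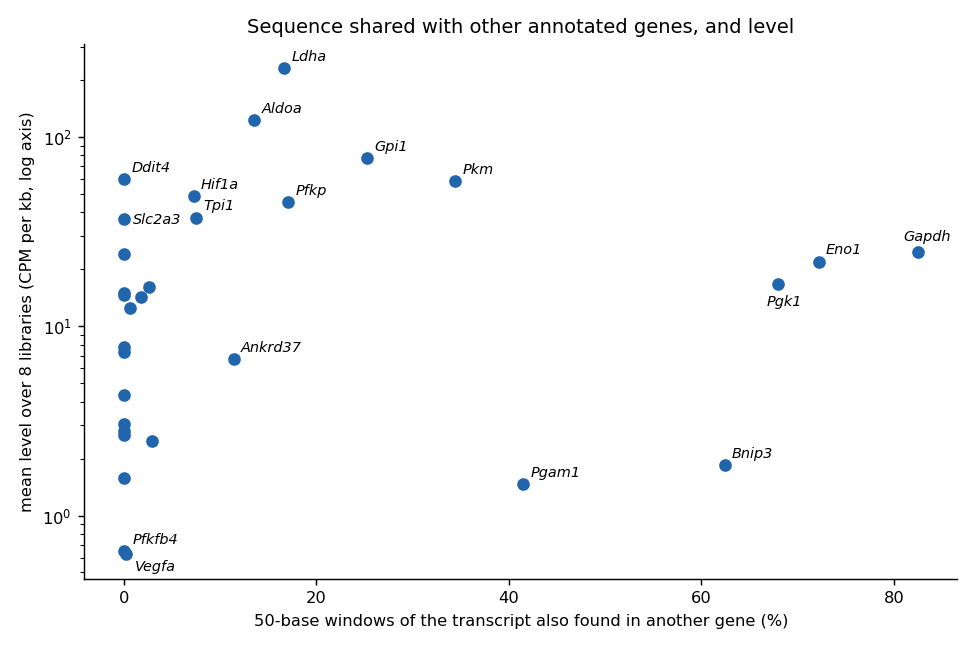
Mean level over 8 libraries (y axis, CPM per kb, log axis) against the share of 50-base windows of the transcript that are also found in another annotated gene (x axis, %), 1 point per member. Gapdh, Eno1, Pgk1 and Bnip3 share 62.4% to 82.5% of their windows, while Ldha shares 16.6% at the highest level, 231 CPM per kb.

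Genes around the 31 members were taken from 6 further lists. Of 33 other isozymes and branch enzymes of glycolysis 27 were tested, and 1 was called, in CD103+ over CD8a+ cultures (all genes 1.44%). Gpd1l, a relative of glycerol 3-phosphate dehydrogenase, had 49.8, 63.1 and 59.7 CPM in CD103+ cultures, 102, 84.7 and 107 CPM in CD8a+ cultures and 69.9 and 62.4 CPM in CD11b+ cultures. The CD8a+ libraries were the highest 3, and the log2 fold change in CD103+ over CD8a+ cultures was -0.82 (SE 0.15, adjusted p = 0.0156), which passed. Of 10 pentose phosphate genes 0 were called by limma-trend, against 1.44%, 0.332% and 1.97% of all genes in the 3 pairs. At an unadjusted p under 0.05 were 5 in CD103+ over CD8a+ cultures (all genes 13.2%). There were 1 in CD103+ over CD11b+ (9.32%) and 3 in CD8a+ over CD11b+ (13.6%). In CD103+ over CD8a+ cultures Prps2 (phosphoribosyl pyrophosphate synthesis) had a log2 fold change of 0.38, Taldo1 (transaldolase) of -0.45 and H6pd (hexose 6-phosphate dehydrogenase) of 0.59, with adjusted p = 0.212, 0.236 and 0.237. Of 13 genes for pyruvate entry into mitochondria 0 were called by limma-trend, against the same 1.44%, 0.332% and 1.97% of all genes. At an unadjusted p under 0.05 were 2 in CD103+ over CD8a+ cultures (all genes 13.2%) and 1 in CD8a+ over CD11b+ (13.6%). Dld, the shared dihydrolipoamide dehydrogenase, had 0.38 on the log2 scale in CD8a+ over CD11b+ cultures (adjusted p = 0.189). In CD103+ over CD8a+ cultures the carrier subunit Mpc2 had -0.49 and the phosphatase subunit Pdp1 0.61 (adjusted p = 0.298 and 0.467).

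Of 15 HIF subunits and regulators 14 were tested and 0 called by limma-trend, against 1.44%, 0.332% and 1.97% of all genes in the 3 pairs. At an unadjusted p under 0.05 were 2, 1 and 1 in CD103+ over CD8a+, CD103+ over CD11b+ and CD8a+ over CD11b+ cultures. The shares of all genes there were 13.2%, 9.32% and 13.6%. Hif3a, a HIF alpha subunit with inhibitory isoforms, had 24.1, 24.5 and 28.7 CPM in CD103+ cultures, 7.12, 9.97 and 13.4 CPM in CD8a+ cultures and 10.7 and 20.1 CPM in CD11b+ cultures. Its CD103+ libraries were above all others, at 1.32 (SE 0.31, adjusted p = 0.0526) on the log2 scale in CD103+ over CD8a+ cultures. The prolyl hydroxylase Egln2 had -0.44 (SE 0.20, adjusted p = 0.364) in that pair and the coactivator Crebbp -0.35 (SE 0.15, adjusted p = 0.302) in CD8a+ over CD11b+ cultures. Of 36 other hypoxia response genes 34 were tested and 2 rose in CD103+ against CD8a+ cultures, where 1.44% of all genes were called. Both are transcription regulators that hypoxia can induce. Bhlhe40 had 83.8, 80.2 and 58.5 CPM in CD103+ cultures, 10.7, 20.7 and 40.7 CPM in CD8a+ cultures and 62.7 and 67.9 CPM in CD11b+ cultures. The CD8a+ libraries were the lowest 3, and the log2 fold change in CD103+ over CD8a+ cultures was 1.75 (SE 0.35, adjusted p = 0.0264). Rora had 93.1, 84.7 and 79.3 CPM in CD103+ cultures, 39.2, 40.5 and 28.7 CPM in CD8a+ cultures and 76.4 and 72.2 CPM in CD11b+ cultures. Its log2 fold change was 1.2004 (SE 0.17, adjusted p = 0.00508) in CD103+ over CD8a+ and -1.0045 (SE 0.19, adjusted p = 0.0148) in CD8a+ over CD11b+ cultures, and both passed. Both genes were lowest in the CD8a+ libraries, whereas Slc2a3 and Hif1a were highest in the CD11b+ libraries.

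Of 30 upstream regulators of T cell glycolysis, 1 rose and 0 fell in CD103+ against CD8a+ cultures, where 1.44% of all genes were called. In CD103+ against CD11b+ cultures 0 were called by limma-trend (all genes 0.332%), and 3 had an unadjusted p under 0.05 (all genes 9.32%). Txnip, an arrestin that removes glucose transporters from the surface and is itself induced by glucose, had 176, 178 and 197 CPM in CD103+ cultures, 116, 89.1 and 90.8 CPM in CD8a+ cultures and 249.8 and 283 CPM in CD11b+ cultures. The 3 kinds of culture did not overlap, with CD11b+ highest and CD8a+ lowest. The log2 fold change of Txnip was 0.85 (SE 0.13, adjusted p = 0.00636) for CD103+ over CD8a+, -1.39 (SE 0.15, adjusted p = 0.000369) for CD8a+ over CD11b+ and -0.54 (SE 0.15, adjusted p = 0.174) for CD103+ over CD11b+ cultures, of which the last did not pass. Myc, a main driver of glycolytic genes in dividing T cells, is named after its values were seen. It had 78.0, 87.1 and 89.0 CPM in CD103+ cultures, 32.3, 47.2 and 60.1 CPM in CD8a+ cultures and 97.2 and 75.4 CPM in CD11b+ cultures, with every CD8a+ library below every other. At 0.85 (SE 0.21, adjusted p = 0.0614) in CD103+ over CD8a+ and -0.87 (SE 0.23, adjusted p = 0.0747) in CD8a+ over CD11b+ cultures it did not pass.

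The authors' deposited table, made with another test on these libraries, gave an adjusted p for 27 of the 31 members and none for Mxi1, Slc16a3, Egln3 and Bnip3. Under 0.05 in the authors' deposited table for CD103+ against CD8a+ cultures were 3 members, where 5.92% of the genes given a value were. These were Aldoc (1.36), Eno1 (-0.59) and Pfkfb3 (0.56), with that table's log2 fold change in brackets. For CD103+ against CD11b+ cultures the authors' deposited table had 4, against 2.93% of genes: Slc2a3 (-0.71), Hif1a (-0.66), Pfkfb3 (0.74) and Gpi1 (-0.39). For CD8a+ against CD11b+ cultures the authors' deposited table had 6, against 7.41% of genes: Slc2a3 (-0.83), Hif1a (-0.58), Vegfa (-2.24), Pkm (0.54), Ldha (0.66) and Eno1 (0.64). The 3 pairs share libraries, so their lists are not independent of one another.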

How the data were processed

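RNA was sequenced from divided OT-I T cells in 8 libraries, grouped by DC partner as the labels' titles give it. The deposited table holds, per the file headers, normalized counts (a signal of gene counts divided by 1 size factor per library), variance-stabilized log2 values, and the authors' log2 fold changes, linear fold changes (ratio), p-values and adjusted p-values for 3 comparisons. It also holds the GC percent of each gene, deposited with the annotation and not used here. Reads were aligned with STAR 2.4.2a to GRCm38 and compared with DESeq2, per the submitters' processing notes. The sources used here do not give the read counter, annotation or strand setting, which bears on genes with pseudogenes or antisense partners.

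The members and lists were chosen with earlier results of these data known. Normalized counts had to average 1 or more for a gene to be tested. The test was limma-trend, run with limma 3.58.1 in R 4.3.3, and took log2(normalized count + 1) as its values, with 1 mean for each of the 3 groups and Benjamini-Hochberg adjustment. That is the test laid down for normalized counts, edgeR having been laid down only for raw counts. Low values were whole multiples of 1 read within 0.1 read for 100% of values, so whole reads were recovered, and edgeR 4.0.16, DESeq2 1.42.0 and limma-voom on those reads were alternatives. CPM was taken from the normalized counts. Lengths came from the GENCODE vM21 basic annotation, whose gene spans equalled the deposited ones for 94.1% of 42462 matched identifiers. The 50-base windows came from the full set of GENCODE vM21 transcripts. Isoform shares were compared by exact permutation. Of the fits across genes, limma-trend was tested on simulated counts with planted changes, and edgeR, DESeq2 and limma-voom were not. The share of planted changes recovered is not given here, so a gene not called is not shown to be equal between cultures. Values in every library were given for members with an unadjusted p under 0.05 in any pair, the 8 with the highest mean CPM, both glucose transporters, both hexokinases and Hif1a. Of the further lists around the members, values were given for called genes or else up to 3 with the smallest p. Called genes of the marker lists were named only. The edgeR test on the recovered reads called 254, 63 and 365 of 14931 genes in the 3 pairs, and 1 member, Slc2a3, in CD8a+ over CD11b+ cultures. At these depths 3 reads came to 0.137 to 0.184 CPM, which covers counting error only. A result from the list of upstream regulators is not reported here.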

Additional observations from a re-analysis of the deposited data

How the results depend on the processing

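Each kind of culture had 2 or 3 libraries, and the rarest member values rested on as few as 8 reads, which limits what Vegfa, Bnip3, Pfkfb4 and Pgam1 can show. Directions were kept in 594 of 594 alternatives for 22 member values with an unadjusted p under 0.05. These values were picked by that p and refitted on the same libraries, so kept directions are no independent support. Counts of members called moved. With DESeq2 they were 3 in CD103+ over CD8a+, 4 in CD103+ over CD11b+, 5 in CD8a+ over CD11b+ and 7 for any difference, where it called 831 of 15249, 367 of 12536, 950 of 13434 and 1358 of 14794 genes in all, larger shares than limma-trend. With limma-voom they were 2 in each of the last 2 pairs, with 74 and 422 of 14931 genes in all. In CD8a+ over CD11b+ cultures the count was 2 with a minimum mean of 10 (431 of 13724 genes in all) or library size scaling (380 of 18991). It was 0 with only the 2 kinds compared. That fit called 0 of 18971 genes by limma-trend (2300 at an unadjusted p under 0.05; Slc2a3 adjusted p = 0.202). The Slc2a3 log2 fold change was -0.89 to -0.83 over these alternatives. For any difference the count of members was 1 with a pseudocount of 5 (446 of 18971 genes in all) or no filter (356 of 23484). It was 3 with a minimum mean of 10 (539 of 13724). Leaving out 1 CD103+ or CD8a+ library at a time, by limma-trend or edgeR, gave 0 to 1, 0 to 2 and 1 to 2 members in the 3 pairs. It gave 0 to 4 for any difference, and the edgeR version was chosen after seeing the data. The fits with the most members called 287 to 486, 225 to 238, 277 to 576 and 626 to 660 genes in all, of 14708 to 18945. With all libraries limma-trend called 273, 63, 374 and 482 of 18971. Fits without a CD11b+ library leave 1 there and are not counted here. With ACGTGC in place of ACGTG the share of member promoters was 50%, against 6.68% of all genes and 10.1% of those with at least 20 CPM. Of the other values, 31 moved past the threshold and 24 short of it under some alternative, and 591 did neither. The cause was not tested.

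The libraries share replicate numbers, but the deviations of same-numbered libraries correlated at -0.031 to 0.023 over 13724 genes, so the numbers were not taken as pairs. With the replicate number as a block, members called were 0, 0 and 1 in the 3 pairs and 2 for any difference, as without it.

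Isoform shares changed sign when single libraries were left out. The ranges, in percentage points, were -0.542 to 7.22 for Slc2a3, -3.75 to 0.275 for Pfkl, -1.51 to 0.702 for Pfkm, -1.90 to 5.61 for Slc16a3 and -0.296 to 0.437 for Ldha in CD103+ minus CD8a+ cultures. They were -0.669 to 0.701 for Aldoc, -3.05 to 0.321 for Pfkfb4 and -0.308 to 0.302 for Ldha in CD103+ minus CD11b+ cultures. In CD8a+ minus CD11b+ cultures they were -7.96 to 3.45 for Hk2, -0.866 to 6.50 for Slc16a3 and -0.349 to 0.242 for Ldha.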
